A study of Rattus norvegicus with 4 samples.

Results

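Described here are 10 genes of the ATF4 pathway and of the unfolded protein response in rat liver. They are the rows of the deposited table, which holds 31457 genes, that carry these symbols, and the choice of symbols was made with earlier results of these data known: Atf4, Ddit3, Trib3, Asns, Chac1, Herpud1, Xbp1, Sesn2, Ern1 and Atf6. Poly(A)-selected RNA of 4 livers of Lewis rats (allotype RT1L) was sequenced on an Illumina MiSeq, with 1 library per group. The miR-27b liver came from a rat with partial hepatectomy (surgical removal of part of the liver) that was given cells labelled ASCs-miR27b into a vein. The siRNC liver came from a hepatectomised rat given cells labelled ASCs-siRNC, and the saline liver from a hepatectomised rat given saline. The naive liver had no surgery named in its label. The labels do not spell out ASCs, taken to be adipose-derived stem cells, or siRNC, taken to be a control oligonucleotide. They name no source of the cells, no time after surgery, no age or sex of the rats and no pooling of animals.

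The unfolded protein response adjusts the cell to a load of unfolded protein in the endoplasmic reticulum (ER), an organelle that hepatocytes use heavily because they secrete most plasma proteins. It starts from the membrane sensors IRE1 (gene Ern1), ATF6 (gene Atf6) and PERK (gene Eif2ak3). IRE1 splices the mRNA of the transcription factor XBP1, ATF6 is cut to release a transcription factor, and PERK phosphorylates eIF2 alpha, which lowers general translation and favours translation of the ATF4 mRNA. The kinase GCN2 (gene Eif2ak4) reaches ATF4 in the same way when amino acids are short. The values below are of mRNA per gene, and show neither splicing of Xbp1 nor cleavage of ATF6 nor the amount of ATF4 protein.

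Promoter sequences, taken from RefSeq for the build GRCr8, were found for 8 of the 10 genes, each with 250 bases before and 50 after the start site. They were searched on both strands for the C/EBP-ATF response element bound by ATF4 (TGATGNAA), the ER stress elements ERSE (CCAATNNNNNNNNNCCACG) and ERSE-II (ATTGG, any base, then CCACG), and the XBP1 element UPRE (TGACGTGG). No match overlapped another. Of 27457 promoters of this length, 3.82% held TGATGNAA, 0.0765% held ERSE, 0.0546% held ERSE-II and 0.637% held UPRE. Shown are the 4 promoters with a match. Those of Atf4, Ddit3, Asns and Sesn2 held no match, and no promoter was found for Ern1 and Atf6. None of the 8 promoters held UPRE. Elements outside these bases or with other letters were not searched. Capitals mark the matched bases, and each sequence runs 5′ to 3′ on the strand of its gene. Trib3 (chr3:161275484-161275783, minus strand) held 1 ATF4 element on the opposite strand, with its leftmost base 21 bases before the start site. Chac1 (chr3:126795881-126796180, plus strand) held 1 ATF4 element on the opposite strand, 167 bases before the start site. Herpud1 (chr19:10614658-10614957, minus strand) held 1 ATF4 element on the opposite strand at 184 bases and 1 ERSE-II on its own strand at 124 bases before the start site. Xbp1 (chr14:84604373-84604672, plus strand) held 1 ERSE on its own strand, 65 bases before the start site.
Trib3: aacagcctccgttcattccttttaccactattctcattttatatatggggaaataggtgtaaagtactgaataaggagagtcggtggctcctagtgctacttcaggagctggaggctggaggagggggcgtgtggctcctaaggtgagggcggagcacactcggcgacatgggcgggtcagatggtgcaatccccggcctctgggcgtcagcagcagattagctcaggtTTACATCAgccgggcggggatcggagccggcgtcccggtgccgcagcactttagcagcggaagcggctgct
Chac1: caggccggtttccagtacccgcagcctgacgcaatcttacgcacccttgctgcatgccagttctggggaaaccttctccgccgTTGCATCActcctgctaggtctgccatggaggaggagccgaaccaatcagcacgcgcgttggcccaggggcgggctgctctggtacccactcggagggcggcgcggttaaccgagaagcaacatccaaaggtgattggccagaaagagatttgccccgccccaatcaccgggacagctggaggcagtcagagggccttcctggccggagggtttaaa
Herpud1: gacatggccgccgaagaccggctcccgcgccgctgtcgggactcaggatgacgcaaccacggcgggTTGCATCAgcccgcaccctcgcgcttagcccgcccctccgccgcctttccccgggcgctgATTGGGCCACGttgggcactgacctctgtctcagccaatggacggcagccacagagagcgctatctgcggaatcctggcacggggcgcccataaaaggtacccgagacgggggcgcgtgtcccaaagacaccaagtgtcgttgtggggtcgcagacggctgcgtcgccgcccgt
Xbp1: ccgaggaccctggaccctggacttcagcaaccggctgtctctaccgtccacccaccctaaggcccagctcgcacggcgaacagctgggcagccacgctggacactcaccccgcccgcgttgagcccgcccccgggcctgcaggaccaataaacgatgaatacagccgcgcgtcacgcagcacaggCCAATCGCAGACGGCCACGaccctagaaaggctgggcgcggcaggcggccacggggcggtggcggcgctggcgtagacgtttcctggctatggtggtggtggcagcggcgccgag
A match describes these letters and is not a measured binding site.

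The deposited values are log2 differences from a baseline that differs between genes, so they compare livers within a gene and say nothing of which gene is more abundant. A gene was called higher or lower at 2-fold or more, a log2 fold of 1 or more in size. Each group is 1 library, so folds are described by size and conditions were not tested against each other. Reads per library could be worked back for Asns, Ddit3 and Chac1, and their ratios carry 95% exact conditional binomial intervals, which cover counting error only. All counting intervals, those of reads included, were computed from reads rounded to whole numbers, while the folds beside them were not rounded in this way. This matters most for Chac1, with its few reads. For the other 7 genes a class of level was inferred. Trib3, Sesn2 and Ern1 were in the class with a log2 level of at least 4 (16 normalized reads), where counting alone gives a log2 ratio an SD of up to 0.51. No probability was worked out for this class, so its level and the SD of 0.51 are not certain for these genes. Atf4, Herpud1, Xbp1 and Atf6 were in the class with a log2 level of at least 8, with a probability of 0.70 for the first 3 and 0.71 for Atf6, where that SD is at most 0.13. Of the 10 genes, 9 passed the filter on low levels, and Chac1, with a mean of 7.95 normalized reads, did not. In all, 9089 genes passed. In bulk tissue, fewer cells of a type and less RNA per cell cannot be told apart.

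**Figure D1:**
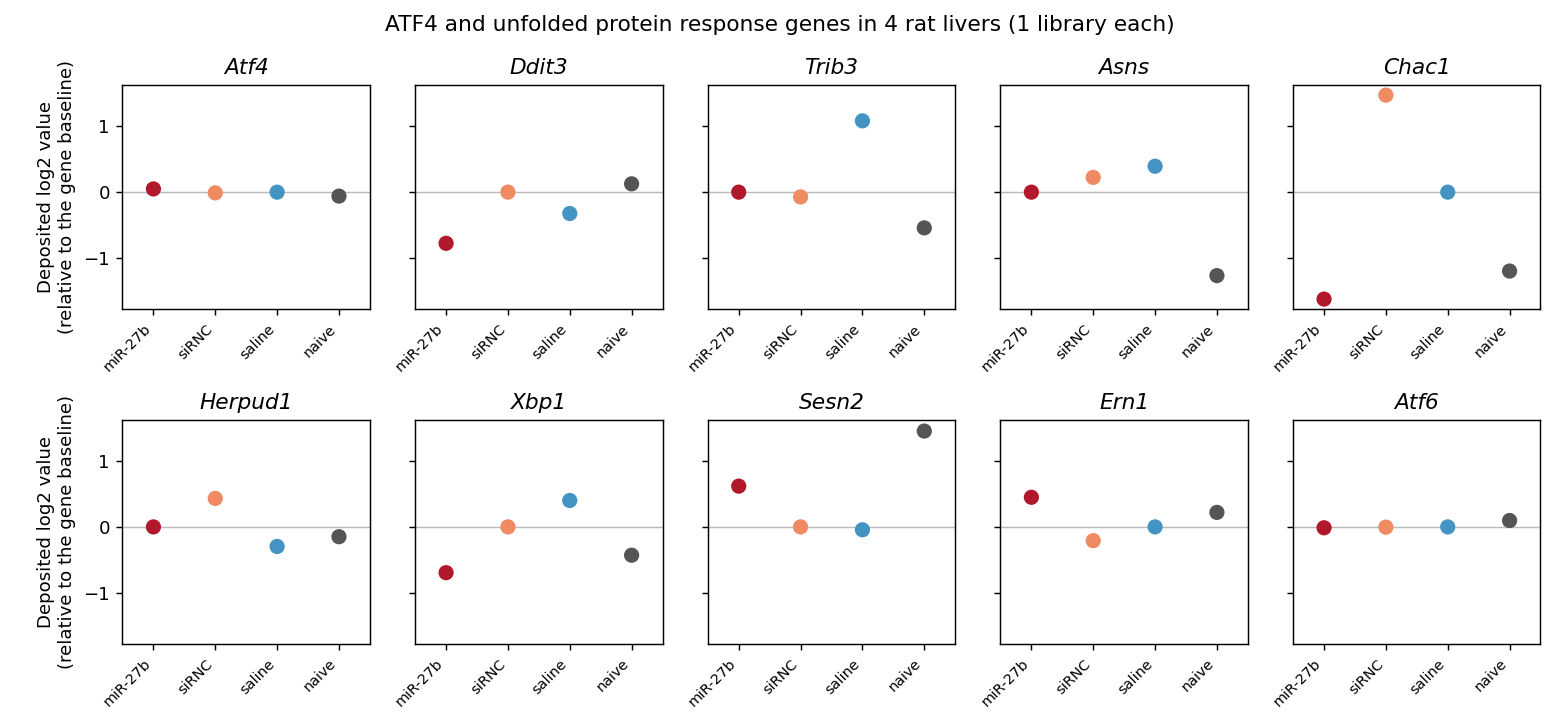
Deposited log2 value (y axis, relative to the baseline of each gene) of the 10 genes in the miR-27b, siRNC, saline and naive livers (x axis), 1 point per library. Atf4 and Atf6 are nearly level in all 4 livers, Asns is lowest and Sesn2 highest in the naive liver, Trib3 is highest in the saline liver and Chac1 in the siRNC liver.

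Asns encodes asparagine synthetase, which makes asparagine from aspartate and glutamine and is a standard readout of ATF4. It had 54 reads in the miR-27b, 66.3 in the siRNC, 77 in the saline and 23 in the naive library. All 3 hepatectomised livers lay above the naive liver, and their 95% Poisson intervals did not overlap its own, which ran to 34.5 reads. The log2 folds over the naive liver were 1.26 (95% interval 0.53 to 2.03) in the miR-27b, 1.49 (0.78 to 2.23) in the siRNC and 1.65 (0.97 to 2.39) in the saline liver. The 3 folds share the naive library. Among hepatectomised livers the intervals included 0: the log2 fold was -0.39 (-0.92 to 0.13) for miR-27b over saline, -0.17 (-0.67 to 0.32) for siRNC over saline and -0.22 (-0.76 to 0.32) for miR-27b over siRNC.

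Trib3 encodes a tribbles pseudokinase that is induced by ATF4 and CHOP and in liver is known to bind AKT. Its values were 0 in the miR-27b, -0.072 in the siRNC, 1.08 in the saline and -0.54 in the naive liver. The saline liver stood apart on the high side and the naive liver was lowest. The saline liver was 3.07-fold above the naive liver (log2 fold 1.62), while the miR-27b liver was at 0.54 and the siRNC liver at 0.47 over naive. Both livers given cells were below the saline liver, at -1.08 for miR-27b and -1.15 for siRNC, and these 2 folds share the saline library with the first. A pseudocount of 5 was also tried, with the Trib3 value of 0 set to 16 normalized reads. This put the siRNC and naive libraries below the bottom of its level class. The folds of miR-27b and siRNC over saline were then -0.89 and -0.94, under 2-fold, and the fold of saline over naive was 1.28.

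Chac1 encodes a glutathione-degrading enzyme that lies downstream of ATF4. It was sparse, with 2.19 reads in the miR-27b, 19.5 in the siRNC, 7.3 in the saline and 3 in the naive library. The siRNC library was the high one. Its log2 fold was 2.66 over naive (95% interval 0.94 to 5.09) and 1.47 over saline (0.26 to 3.05). The miR-27b liver was below the siRNC liver by -3.09 on the log2 scale (-6.39 to -1.21), the widest fold among the 10 genes. Intervals that included 0 were those of saline over naive at 1.19 (-0.998 to 3.72), miR-27b over naive at -0.42 (-4.14 to 2.57) and miR-27b over saline at -1.62 (-4.99 to 0.71). With a pseudocount of 5, the folds of 1.19 and -1.62 were 0.57 and -0.72, under 2-fold.

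**Figure D2:**
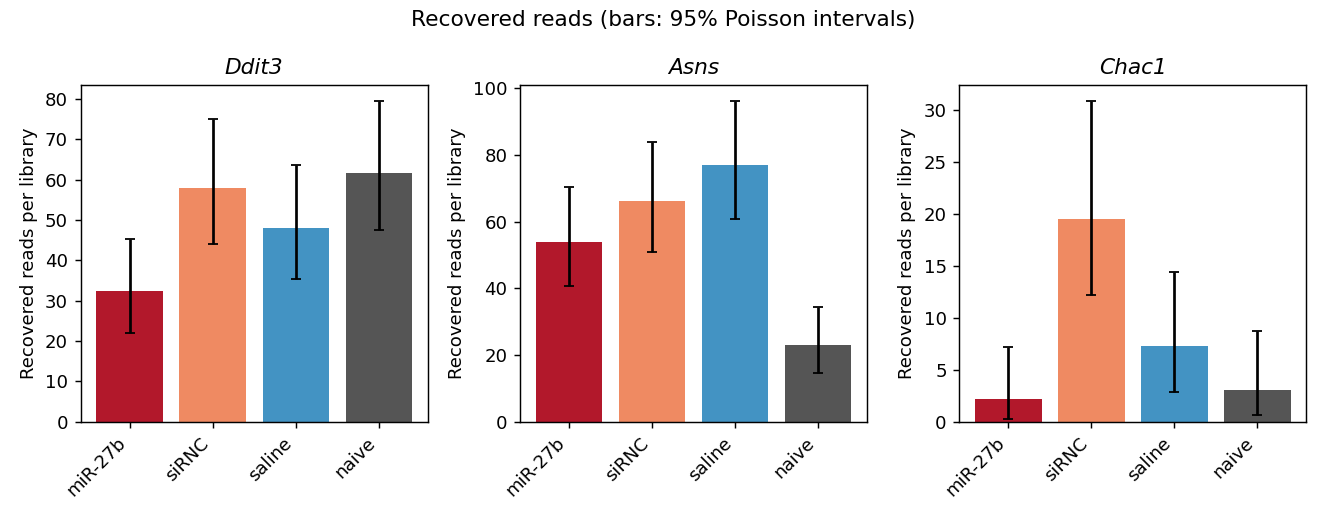
Recovered reads per library (y axis) of Ddit3, Asns and Chac1 in the 4 livers (x axis), with 95% Poisson intervals as error bars. Asns has 23 reads in the naive library and 54 or more in each of the others, Ddit3 is lowest in the miR-27b library at 32.3, and Chac1 is highest in the siRNC library at 19.5.

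Ddit3 encodes CHOP, a transcription factor of the C/EBP family that promotes cell death under lasting ER stress. It had 32.3 reads in the miR-27b, 58 in the siRNC, 47.9 in the saline and 61.5 in the naive library. The miR-27b liver was the lowest, although its fold did not reach 2-fold in any comparison. The log2 fold of miR-27b was -0.90 over naive (95% interval -1.59 to -0.29), -0.77 over siRNC (-1.46 to -0.14) and -0.45 over saline (-1.16 to 0.21). The saline liver was at -0.45 (-1.03 to 0.11) and the siRNC liver at -0.13 (-0.68 to 0.40) over naive, both with intervals that included 0. Ddit3 therefore did not have the naive-low pattern of Asns.

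Sesn2 encodes sestrin 2, a leucine sensor that restrains mTORC1 and is a target of ATF4, p53 and NRF2. Its values were 0.62 in the miR-27b, 0 in the siRNC, -0.044 in the saline and 1.45 in the naive liver. The naive liver was the highest, and the saline and siRNC livers were nearly equal. The log2 fold over naive was -0.83 in the miR-27b, -1.45 in the siRNC and -1.49 in the saline liver, so 2 of the 3 were at least 2-fold lower. The miR-27b liver was 0.62 above the siRNC and 0.66 above the saline liver. Sesn2 and Asns, both reached by ATF4, thus lay on opposite sides of the naive liver.

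Atf4 itself had values of 0.049 in the miR-27b, -0.011 in the siRNC, 0 in the saline and -0.060 in the naive liver. Its range over the 4 livers was 0.11, and 1.53% of the 9089 genes had a range as narrow. Log2 folds over naive were 0.11 in the miR-27b, 0.049 in the siRNC and 0.060 in the saline liver. ATF4 is largely controlled through translation of its mRNA, which these data do not measure.

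Among the ER sensors, Atf6 was as level as Atf4. Its values were -0.013 in the miR-27b, -0.0038 in the siRNC, 0 in the saline and 0.096 in the naive liver, a range of 0.11 that 1.54% of genes did not exceed. Ern1, the gene of the kinase and RNase IRE1, had 0.45 in the miR-27b, -0.21 in the siRNC, 0 in the saline and 0.22 in the naive liver. The miR-27b liver was highest and the siRNC liver lowest, 0.66 apart on the log2 scale, and no pair of livers was 2-fold apart.

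Xbp1 encodes the transcription factor that IRE1 activates, and drives genes of secretion and ER-associated degradation. It had -0.69 in the miR-27b, 0 in the siRNC, 0.40 in the saline and -0.43 in the naive liver. The saline liver was highest and the miR-27b liver lowest, the reverse of Ern1 for the miR-27b liver. The miR-27b liver was 2.13-fold lower than the saline liver (log2 fold -1.09) and was at -0.69 over siRNC and -0.26 over naive. The saline liver was at 0.83 and the siRNC liver at 0.43 over naive. Plasma cells also use Xbp1; of 8 plasma and B cell markers in the table none passed the filter, with Igj and Cd79a listed at 0 in all 4 libraries, and the part of such cells in the Xbp1 values was not tested. A listed 0 does not show low expression in this table, since Iars and Tram1, which all cells use, are listed at 0 as well.

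Herpud1 encodes an ER membrane protein of the degradation machinery that is induced through both ATF4 and ATF6. Its values were 0 in the miR-27b, 0.43 in the siRNC, -0.30 in the saline and -0.15 in the naive liver. The siRNC liver was the highest, 0.58 over naive and 0.73 over saline. The miR-27b liver was at 0.15 over naive and -0.43 over siRNC, and no pair reached 2-fold.

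**Figure D3:**
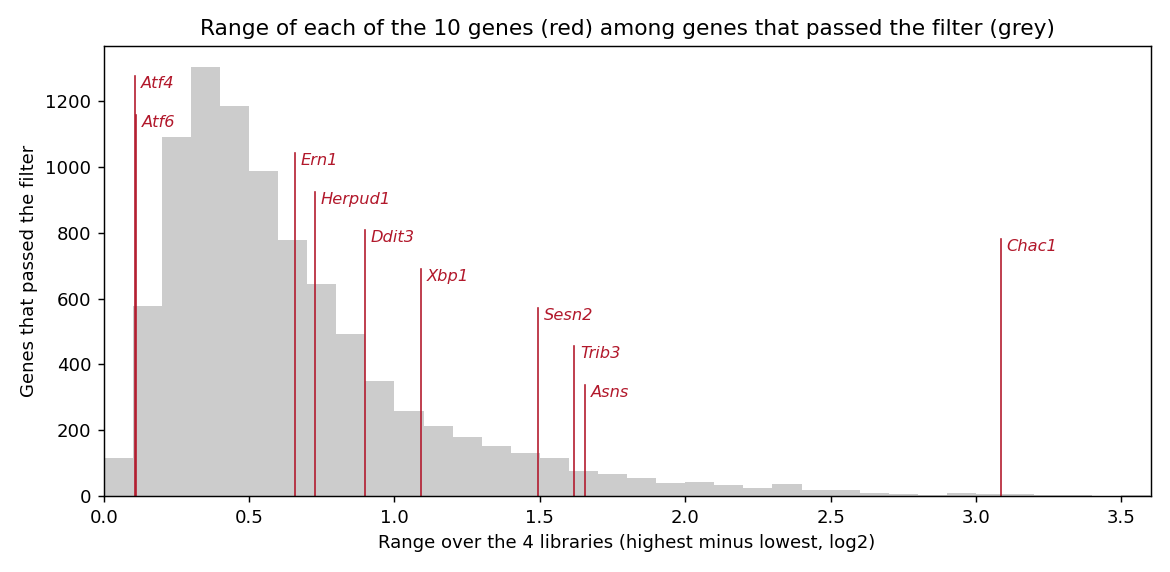
Number of genes (y axis) by their range over the 4 libraries on the log2 scale (x axis, highest minus lowest value) for the 9089 genes that passed the filter, in grey. Red lines mark the 10 genes, of which Chac1 did not pass the filter: Atf4 and Atf6 lie at 0.11, at the narrow end, and Asns (1.65) and Chac1 (3.09) far to the right.

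Counted over the 9 genes that passed the filter, no comparison moved the group as a whole in one direction. In the saline over the naive liver, 2 genes (Trib3 and Asns) were at least 2-fold higher, where 4.78% of all 9089 genes were, and 1 (Sesn2) was at least 2-fold lower, where 3.31% were. The median log2 fold of the 9 genes was -0.096, against -0.016 for all genes. In the siRNC over the naive liver, 1 gene (Asns) was higher, against 4.87% of all genes, and 1 (Sesn2) lower, against 3.16%, with a median of 0.049 against -0.011 for all genes. In the miR-27b over the naive liver, 1 gene (Asns) was higher, against 6.92% of all genes, and 0 were lower, against 3.38%, with a median of 0.11 against -0.037. These comparisons share the naive library.

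Between hepatectomised livers at most 2 of the 9 genes were 2-fold apart. In the siRNC over the saline liver, 0 of the 9 genes were higher, against 1.69% of all genes, and 1 (Trib3) was lower, against 1.32%. In the miR-27b over the saline liver, 0 were higher, against 1.76%, and 2 (Trib3 and Xbp1) were lower, against 1.45%. In the miR-27b over the siRNC liver, 0 were higher, against 2.34%, and 0 were lower, against 1.88%. The medians of the 9 genes in these comparisons were -0.011, -0.013 and -0.0094. Over all 4 libraries, 4 of the 9 genes (Trib3, Asns, Xbp1 and Sesn2) had a range of at least 1, as had 17.2% of all genes.

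**Figure D4:**
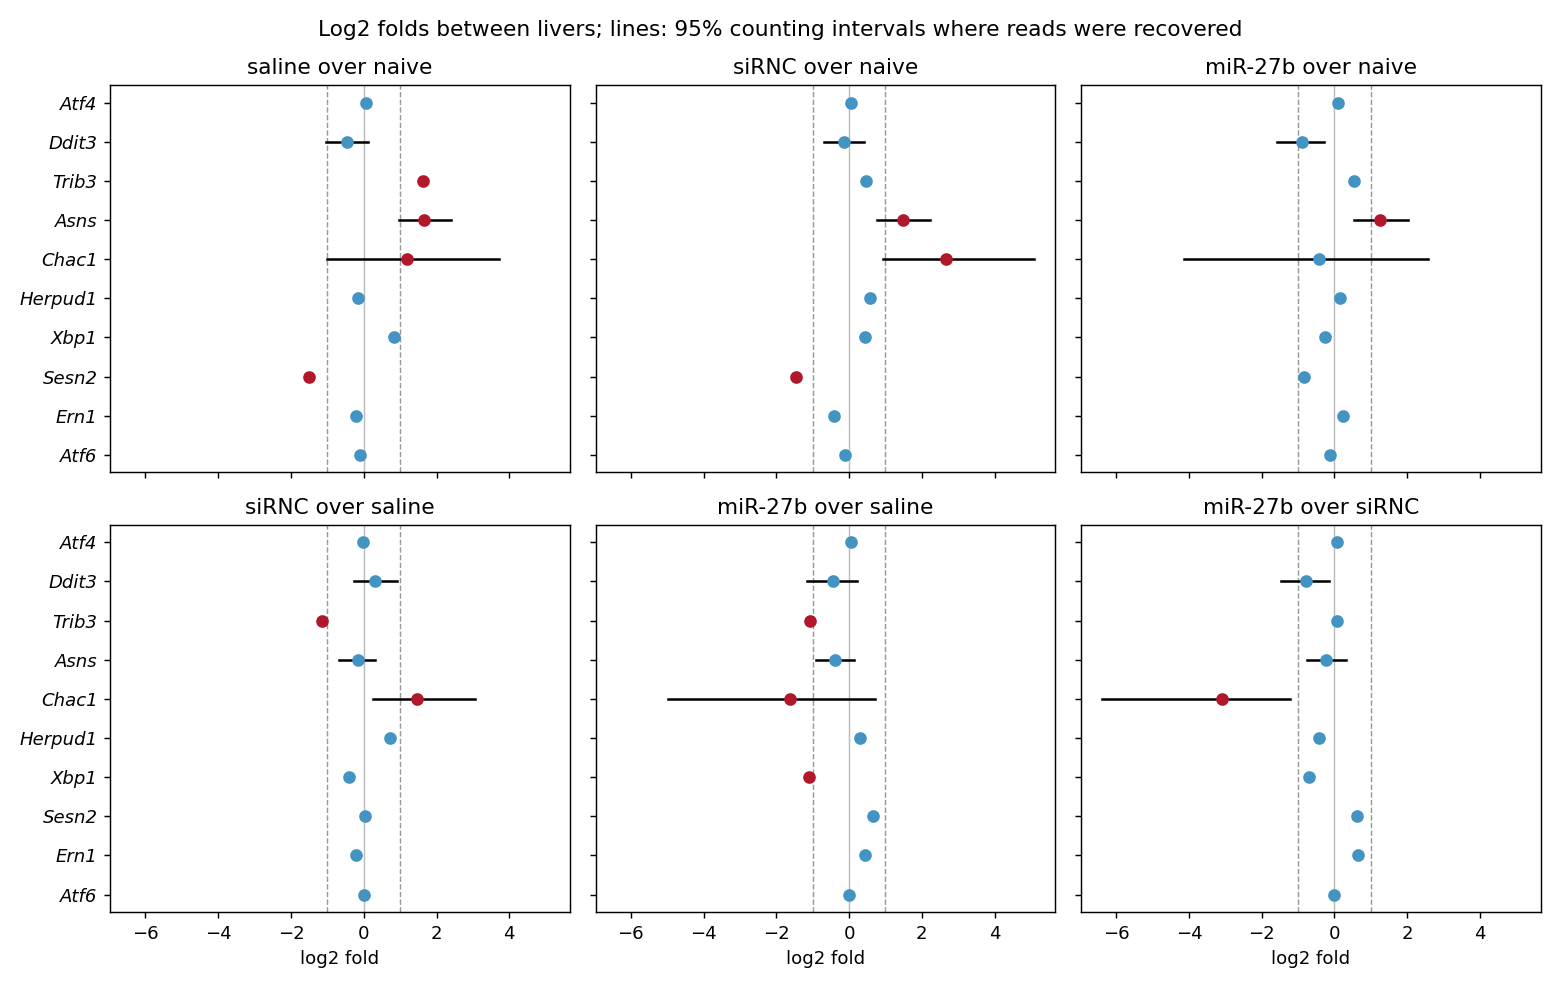
Log2 fold (x axis) of the 10 genes (y axis) in 6 comparisons of livers, red at 2-fold or more (dashed lines) and blue below, with 95% counting intervals for the 3 genes whose reads were recovered. Asns is red in the 3 comparisons with the naive liver, Sesn2 in 2 of them, and Trib3 lies below 0 in both livers given cells when set against the saline liver.

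Other genes of these pathways did not follow Asns as a group. Of 20 ATF4 targets of amino acid metabolism and transport, 12 passed the filter, Asns among them. In the miR-27b over the naive liver 1 (Asns itself) was at least 2-fold higher and 0 lower. In the siRNC liver 1 (Asns) was higher and 1 (Slc1a4) lower. In the saline liver 2 (Asns and Psat1) were higher and 1 (Slc7a5) lower. The medians were -0.21 in the miR-27b, -0.28 in the siRNC and -0.16 in the saline liver. Of all genes, 6.92%, 4.87% and 4.78% were higher and 3.38%, 3.16% and 3.31% lower in the same order. Slc7a5, the light chain of a large neutral amino acid transporter, had 24 reads in the miR-27b, 43 in the siRNC, 11 in the saline and 32 in the naive library. It was lowest in the saline liver, with a log2 fold of -1.63 over naive (95% interval -2.77 to -0.60), and the miR-27b and siRNC livers were above the saline liver by 1.25 (0.16 to 2.42) and 2.01 (1.03 to 3.12). Slc1a4, a transporter of small neutral amino acids, was at 0.55 in the miR-27b, -1.36 in the siRNC and -0.24 in the saline liver over naive. Psat1, an enzyme of serine synthesis, was at 0.50, 0.078 and 1.03 in the same order, so only the saline liver passed 2-fold.

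The second list held 16 other targets of ATF4 and of the integrated stress response, 12 of them passing the filter and including Trib3, Ddit3 and Sesn2. In the saline over the naive liver 2 were at least 2-fold higher (Nupr1 and Trib3) and 4 lower (Fgf21, Sesn2, Ddit4 and Ppp1r15a, the last named after its value was seen). In the siRNC liver 0 were higher and 2 lower, and in the miR-27b liver 1 higher and 1 lower. Of all genes, 4.78% were higher and 3.31% lower in the saline over the naive liver. For the siRNC liver these shares were 4.87% and 3.16%, and for the miR-27b liver 6.92% and 3.38%. The list medians over naive were -0.48 in the miR-27b, -0.093 in the siRNC and -0.39 in the saline liver. Fgf21, a hormone secreted by the liver, had 32.0 reads in the miR-27b, 10.8 in the siRNC, 14.1 in the saline and 76.9 in the naive library. Every hepatectomised liver was below the naive liver in Fgf21, by -1.24 (95% interval -1.88 to -0.62) in the miR-27b, -2.88 (-3.91 to -1.93) in the siRNC and -2.53 (-3.49 to -1.72) in the saline liver on the log2 scale, and the miR-27b liver was above the siRNC liver by 1.64 (95% interval 0.59 to 2.75). Atf3, a stress-induced transcription factor, had 9 reads in the miR-27b, 19 in the siRNC, 6 in the saline and 11 in the naive library. Like Chac1 it was highest in the siRNC library, with a log2 fold of 1.71 over saline (95% interval 0.33 to 3.32) and an interval over naive that included 0 (-0.40 to 1.97). Nupr1, a stress-induced chromatin protein, was at 1.57 in the miR-27b, 0.33 in the siRNC and 1.03 in the saline liver over naive.

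Aminoacyl-tRNA synthetases, which load amino acids on tRNA, include many ATF4 targets. The 17 of 18 that passed the filter stayed within 2-fold in all 6 comparisons. Most genes did so too, since 1.32% to 6.92% of all genes were called, depending on comparison and direction. The median of the synthetases over naive was -0.20 in the miR-27b, -0.037 in the siRNC and 0.16 in the saline liver. The widest range was that of Vars, at 0.72, followed by Eprs at 0.63 and Cars at 0.53.

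Sensors, eIF2 kinases and eIF2 factors were close to level as well. Of 20 genes that passed the filter, 0 in the miR-27b and 1 each in the siRNC and saline livers were at least 2-fold higher than naive, and 0 were lower in any of them, with medians of -0.23, -0.095 and -0.086. Of all genes, 6.92%, 4.87% and 4.78% were higher and 3.38%, 3.16% and 3.31% lower in the same order. The higher gene of this list was Creb3l1, an ER-bound transcription factor related to ATF6, at 0.66 in the miR-27b, 1.71 in the siRNC and 1.20 in the saline liver. Its relative Creb3l2 was at -0.88, -0.051 and -0.67 in the same order. Eif2b2, a subunit of the exchange factor of eIF2, was at 0.082, 0.60 and 0.76.

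ER chaperones and folding enzymes, the classic output of ATF6 and XBP1, lay slightly higher than naive in the livers given cells, without a 2-fold difference in any gene. Of 18 genes, all of which passed the filter, 14 were above 0 in the miR-27b, 17 in the siRNC and 13 in the saline liver over naive, with medians of 0.40, 0.36 and 0.10. The medians of all 9089 genes were -0.037, -0.011 and -0.016, and the share of all genes above 0 was not counted. At most 6.92% of all genes were 2-fold or more higher than naive in any liver, and at most 3.38% lower. Set against the saline liver, 15 of the 18 were above 0 in the miR-27b and 17 in the siRNC liver. Their medians were 0.35 and 0.36, against -0.0033 and -0.0074 for all genes. These comparisons share libraries with those over naive. Hsp90b1, the ER form of HSP90, was at 0.83 in the miR-27b, 0.64 in the siRNC and 0.42 in the saline liver over naive. Creld2, a secreted ER stress protein, was at 0.59, 0.81 and 0.10, and Dnajb9, a cochaperone of BiP that also binds IRE1, was at -0.62, 0.27 and -0.21.

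Within ER-associated degradation, which returns misfolded proteins to the cytosol and also holds Herpud1, 16 of 18 genes passed the filter, with medians over naive of 0.026 in the miR-27b, 0.12 in the siRNC and 0.061 in the saline liver. Edem1, a mannosidase-like protein that hands glycoproteins to degradation and is a known XBP1 target, was the 1 gene at least 2-fold higher than naive in the miR-27b liver (1.45) and in the saline liver (1.25). It was at 0.22 in the siRNC liver. Of all genes, 6.92% were at least 2-fold higher than naive in the miR-27b and 4.78% in the saline liver. Ube2g2, a ubiquitin-conjugating enzyme of this route, was at 0.84 in the miR-27b, 0.021 in the siRNC and 0.87 in the saline liver. Ube2g2 did not reach 2-fold in any comparison. Herpud2, a relative of Herpud1, was at -0.085, 0.24 and 0.56 in the miR-27b, siRNC and saline livers over naive. Translocon and signal peptide genes, 16 of 17 passing the filter, had no 2-fold difference in any comparison. Of all genes, 1.32% to 6.92% were called, depending on comparison and direction. The medians of the 16 genes over naive were 0.078 in the miR-27b, 0.12 in the siRNC and -0.063 in the saline liver. Srprb, a subunit of the receptor for the signal recognition particle, had the widest range of them at 0.56, and Ssr1 and Ssr4, subunits of the translocon-associated complex, had 0.40 each.

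The list of sestrins, tribbles genes and amino acid control of mTORC1 had 13 of 15 genes passing the filter, and Trib3, Sesn2 and Ddit4 stood also in the second list. Its medians over naive were -0.11 in the miR-27b, -0.025 in the siRNC and 0.015 in the saline liver. Trib1, a tribbles relative of Trib3 that in mouse liver controls C/EBP alpha, was higher than naive in all 3 hepatectomised livers, at 1.05 in the miR-27b, 1.49 in the siRNC and 1.26 in the saline liver. Ddit4, an inhibitor of mTORC1, had 14.1 reads in the miR-27b, 14.1 in the siRNC, 12.3 in the saline and 25.5 in the naive library. It was lowest relative to naive in the saline liver, at -1.13 (95% interval -2.28 to -0.10), while the intervals of the other 2 livers included 0. Tsc1, part of the TSC complex that restrains mTORC1, was at -0.39 in the miR-27b, -0.88 in the siRNC and -0.59 in the saline liver.

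**Figure D5:**
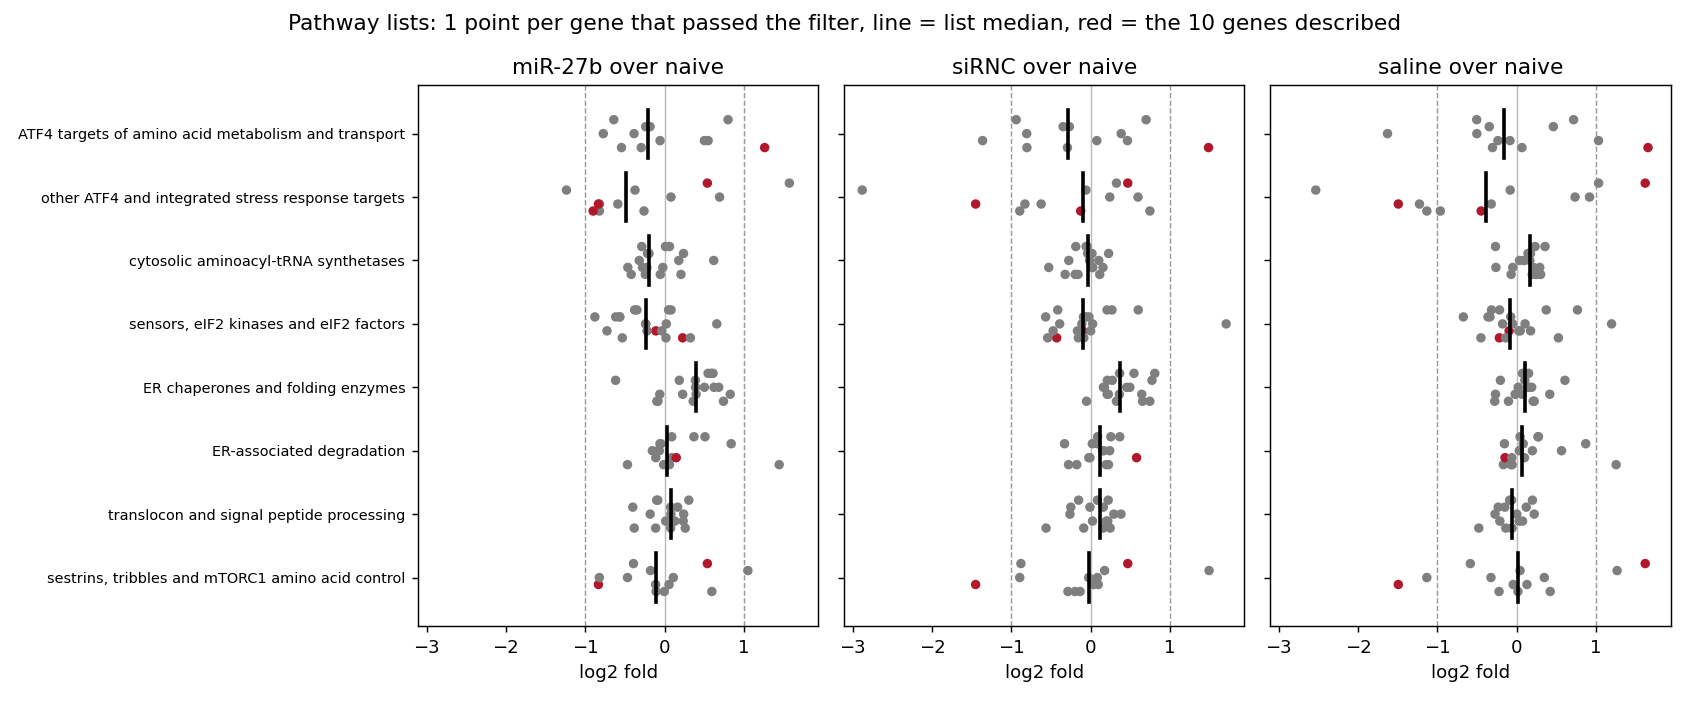
Log2 fold over the naive liver (x axis) of the genes of 8 pathway lists (y axis) in the miR-27b, siRNC and saline livers, 1 point per gene that passed the filter, red for the genes described at length, with the list median as a black line. The ER chaperone medians lie at 0.40, 0.36 and 0.10, and the 2 lists of ATF4 targets spread to both sides of 0.

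The genes whose 4 values were most alike were found by the Euclidean distance between values centred on the mean of each gene, over 4 libraries, for the genes with a range of at least 1. For Asns they were LOC679462 (distance 0.051) and Lrg1 (0.054). Xbp1 was nearest to Rassf7 (0.076) and Ctdp1 (0.086), and Trib3 to PVR (0.30) and Zfp280c (0.33). Chac1 had no close neighbour, the nearest being Hsd17b2 (0.70) and Slc25a30 (0.82). With 4 values per gene such likeness is a description only.

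The livers also differed in markers of other cells. All 8 hepatocyte markers were in the class with a log2 level of at least 8 and none was 2-fold from naive. Of 7 macrophage and Kupffer cell markers, 7 in the miR-27b, 5 in the siRNC and 7 in the saline liver were at least 2-fold higher than naive, as were all 5 erythroid markers in each, 3 of them haemoglobin genes that may share reads. Of all 9089 genes, 6.92% were that much higher in the miR-27b, 4.87% in the siRNC and 4.78% in the saline liver. Endothelial markers at least 2-fold higher than naive numbered 3, 2 and 2 of 6 in the same order, and stellate cell markers 1, 2 and 1 of 4. Of 5 proliferation markers 2 passed the filter, Mki67 and Ccna2, with a median over naive of -0.76 in the miR-27b, -2.88 in the siRNC and -2.18 in the saline liver. Ccna2 had 16 reads in the miR-27b, 2.40 in the siRNC, 4 in the saline and 26.5 in the naive library. It passed on its mean only through the naive and miR-27b libraries, so its lower reads elsewhere carry no weight of their own. Mki67 was at -0.82 in the miR-27b, -2.26 in the siRNC and -1.54 in the saline liver over naive. No neutrophil marker passed the filter, and Mpo, Elane, Ngp and Camp were listed at 0 in all libraries, which, as above, does not show low expression. Of the cholangiocyte markers 1 passed the filter, Epcam, at 0.58, 0.47 and 0.99 over naive in the same order, and of acinar pancreas markers 1 passed, Cela1, at -1.26, -1.24 and -0.51. The part of such cells in the values of Asns, Sesn2, Trib3 and the other genes was not tested.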

How the data were processed

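Rat liver RNA was sequenced in 4 libraries, 1 per group, with groups taken from the source labels and columns matched by sample titles. The values were deposited by the authors as log2 normalized values; the submitters' processing notes name DESeq and the build rn5, and the file header names a RefSeq gene entity list. No aligner or counter is given in the sources used here. In 77.3% of 12874 genes with a value other than 0, a middle library is at exactly 0, so only differences within a gene are given, and the depth per library is unknown.

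Computed here (Python 3.11.15, NumPy 2.4.6, SciPy 1.17.1) were the worth of 1 read per library, from genes seen in 1 library alone (size factors 0.956 for miR-27b, 1.01 for siRNC, 1.04 for saline and 0.977 for naive), and read numbers in steps of 1/101 read. That step accounts for 58.0% of 88 partial reads. Up to 400 reads were searched, and a posterior over 0.9 and a log evidence over -40 were required, which recovered 2713 genes. The posterior was 0.94 for Asns, 0.93 for Ddit3 and 1.00 for Chac1. Other genes were placed in level classes from the binary rounding of their values. Kept were recovered genes averaging 10 or more normalized reads and the genes of both classes (log2 level of at least 4, or of at least 8), in all 9089. PCR copies are not independent molecules, so intervals cover counting error only.

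The 10 genes and the gene lists were chosen with earlier results of these data known. Named beside them are the 3 genes with the widest range in each pathway list and the 2 nearest genes in pattern; those of Sesn2 are not reported here.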

Additional observations from a re-analysis of the deposited data

How the results depend on the processing

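With 1 library per group, leaving out a replicate was not possible. No paired analysis was possible because each group holds 1 library with no replicate number. Re-centring on the median of all genes moved no comparison by more than 0.04. It left all 60 folds of the 10 genes within their counting interval or 0.13 and all 14 calls in place. A shift this small could not break that rule, and the smallest call, 1.08 in size, could not fall under 1. A pseudocount of 5 moved 9 of the 60 folds by that same rule, and 10 of 14 calls were still at least 2-fold. The count of 9 says little of Chac1, since its counting intervals are so wide that large shifts stayed inside them. For Chac1 the log2 fold of miR-27b over siRNC went from -3.09 to -1.74. That of miR-27b over saline went from -1.62 to -0.72. Under the pseudocount the genes at least 2-fold lower, of the 9 that passed the filter, numbered 0 in siRNC over saline and 1 in miR-27b over saline. Among genes at higher levels alone (mean of at least 50 normalized reads or the higher class), which are 6 of the 10, 1 was higher and 0 lower in saline over naive, 0 were lower in siRNC over naive and over saline, and 1 was lower in miR-27b over saline. The medians there were 0.24 in siRNC over naive, -0.20 in miR-27b over saline and -0.33 in miR-27b over siRNC. Without the filter, which adds Chac1, 2 were higher in siRNC over naive, 1 was higher in siRNC over saline and 1 was lower in miR-27b over siRNC, with medians of 0.24 in siRNC over naive and -0.20 in miR-27b over saline. Also without the filter, 3 were higher in saline over naive and 3 lower in miR-27b over saline, and the median of miR-27b over siRNC was -0.12. Under both sets of genes the median of miR-27b over naive was -0.00046, against 0.11 among the 9 genes that passed the filter, and so changed sign, and that of saline over naive was -0.018, against -0.096. These shifts come with the change of genes counted. No call changed sign, but none of these settings could change one. The pseudocount was the same in both libraries, re-centring moved folds by at most 0.04, and the choice of genes alters no fold. Depth limits Chac1 most, with 2.19 reads in its lowest library.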
